A study of Danio rerio with 16 samples.

Results

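The response of the wild-type zebrafish ventricle to cryoinjury was described by comparing 4 libraries taken after injury with 4 taken after a sham operation, across all 14986 genes that passed a filter on low counts. These 8 libraries were chosen by their titles, IN_WT and SH_WT replicates 1 to 4, from the 16 of the series. The other 8 came from injured and sham fish with a CRISPR/Cas9 mutation of ankrd1a, the allele bns502. They enter through the filter on low counts, the scaling of libraries, the shared estimate of spread and a few values given side by side. With the 8 wild-type libraries alone the filter kept 14038 genes. The wild-type fish were of the AB (Oregon) strain, with no transgene named in the labels, and were kept in a cycle of 14 h light and 10 h dark. In the injured group a probe chilled with liquid nitrogen touched the ventricular apex for 25 s, and in the sham group the probe was at room temperature, so that both groups shared the anaesthesia, the contact of a probe with the ventricle and the 7 days of recovery. Each library pooled the ventricles of 3 fish, which leaves the spread between single fish unmeasured, and the p-values describe the spread between pools.

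Freezing kills the muscle, vessels and connective tissue under the probe. In the zebrafish heart the dead tissue is cleared by leukocytes, and the epicardium and fibroblasts lay down a temporary matrix of fibronectin, periostin and collagen. Cardiomyocytes next to the wound shed part of their contractile and oxidative programme and divide. The first week after injury is known as the time when cardiomyocyte and non-muscle cell division is at its height, well before the scar regresses. In a whole ventricle these changes add up in the same RNA, so that fewer cells of a type and less RNA per cell cannot be told apart.

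Library totals ran from 5636617 to 7961815 estimated counts. Mitochondrially encoded genes took 18.6% to 22.9% of the counts of a sham library and 7.91% to 14.3% of an injured one, with injured replicate 4 the lowest. All values per gene are counts per 1000000 scaled counts (CPM), given in the order of replicates 1, 2, 3 and 4 of each group. They are not divided by gene length and compare libraries, not genes. A gene was called when its adjusted p was below 0.05 in the quasi-likelihood F test of edgeR, with Benjamini-Hochberg adjustment over all 14986 genes. The first principal component of the 8 libraries held 48.9% of the variance and separated the groups. The second, with 14.1%, set sham replicate 4 (score 53.6) and injured replicate 1 (score 32.6) apart from the other 6 libraries (scores -22.7 to -1.03). These libraries are named below beside the genes they touch. As a check of the labelled tissue, the ventricular myosin heavy chain MYH7 (ENSDARG00000079782) stood at 17090 CPM or more in all 8 libraries, and the atrial myosin myh6 (ENSDARG00000090637) at 1141 CPM or less. A separate MYH6 ID, described below among the largest gains, went above that level in part of the injured libraries.

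**Figure D1:**
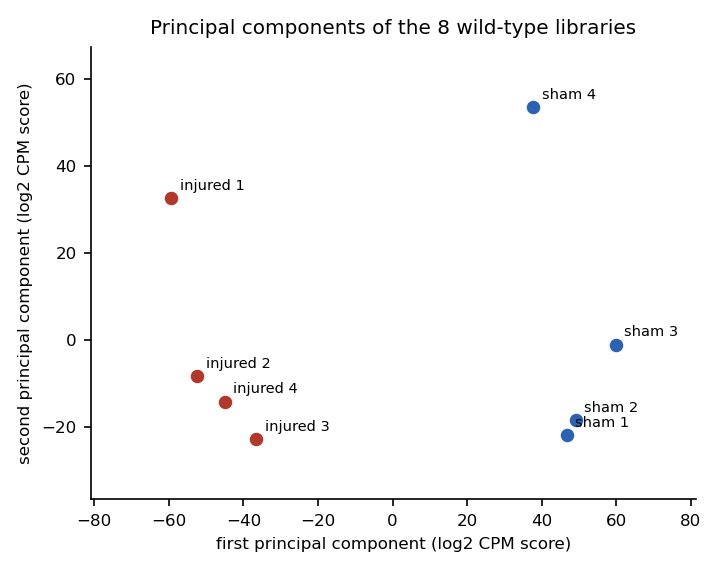
Scores of the 8 wild-type libraries on the first 2 principal components of log2 CPM over all tested genes; each point is 1 library of 3 pooled ventricles, injured in red and sham in blue. The groups separate along the first component, and sham replicate 4 and injured replicate 1 lie above the other 6 libraries on the second.

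The response was broad and lopsided: many genes of low level rose by large factors, and many abundant genes of muscle and mitochondria fell, mostly by smaller ones. The 13 mitochondrially encoded genes had a median log2 fold change of -1.25. Of all tested genes 25.3% were called, 13.9% higher after injury (2076 genes) and 11.5% lower (1722 genes). In 26.1% of tested genes the 4 injured and the 4 sham libraries did not overlap, 14.0% with the injured libraries higher and 12.1% with them lower. Genes called higher had a median log2 fold change of 1.42, genes called lower had one of -0.74, and over all tested genes the median was 0.0072. In 152 of the genes called higher, no sham library had more than 3 counts, taken here as the counting floor; the median of genes called higher was 1.38 with these held at their lower bound. No gene called lower was that scarce in the injured libraries. A rise or fall of at least 2 on the log2 scale was reached by 629 of the genes called higher and by 25 of those called lower, and one of at least 3 by 214 and 5. Below 1 on the log2 scale the order turned, with 605 genes called higher and 1326 called lower.

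The direction of change followed the expression level. Among the 393 genes with a mean under 1 CPM, 26.7% were called higher and 0.509% lower. Among the 6888 genes with a mean of 1 to 10 CPM, 15.9% were called higher and 3.43% lower. From 10 to 100 CPM (6524 genes) the shares were 11.9% and 15.07%, and from 100 to 1000 CPM (1078 genes) 8.72% and 41.3%. Of the 103 genes above 1000 CPM, 5.83% were called higher and 54.4% lower. Counting precision grows with level and helps small changes of abundant genes to be called, so these shares mix size of change with power. At the low end the filter can keep a gene for its level in a single group, of either genotype. This also shapes the shares and medians there. The median log2 fold change of all genes in a level class, called or not, was 1.07 under 1 CPM and 0.17 at 1 to 10 CPM. It was -0.09 at 10 to 100 CPM, -0.37 at 100 to 1000 CPM and -0.53 above. Genes called lower made up 61.8% ± 1.79 of the tested genes' counts in a sham library and 45.2% ± 2.74 in an injured one (SD, n = 4). Genes called higher went from 3.13% ± 0.319 to 9.90% ± 0.967. The call itself, made in the same libraries, fixes the direction of both shifts and favours large ones.

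**Figure D2:**
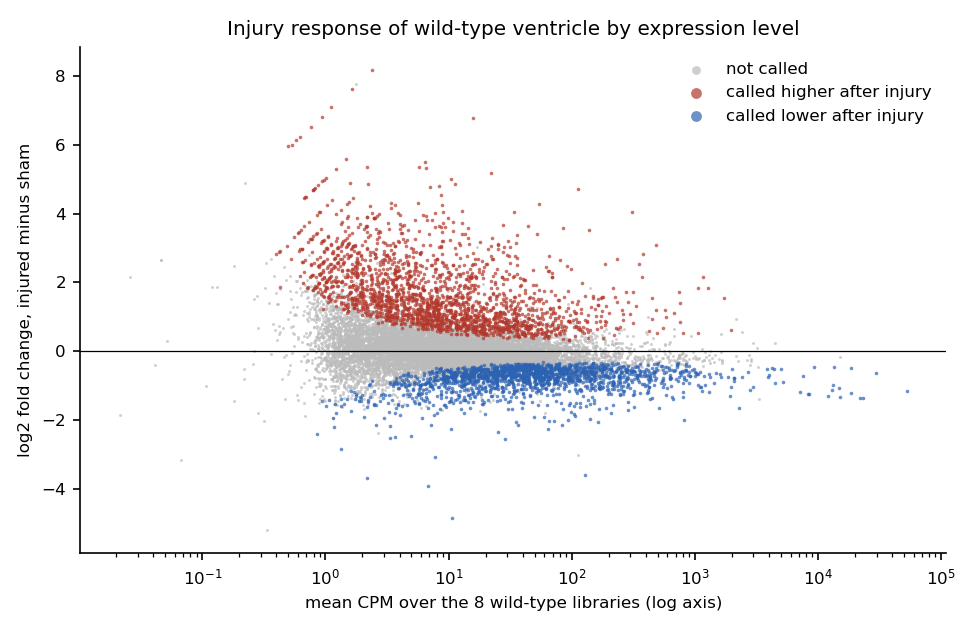
Log2 fold change of injured over sham against mean CPM (log axis) for the 14986 tested genes; each point is 1 gene, red where called higher, blue where called lower and grey where not called. The red points spread upwards at low levels, and the blue points gather under 0 at high levels, where 54.4% of the genes above 1000 CPM were called lower.

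The next paragraphs go through 59 gene lists by role; they hold 1563 tested genes and 752 of the called ones, so that 3046 called genes lie in no list. In 17 lists a majority of the tested members were called higher, and in 6 a majority were called lower. Medians over a list are of log2 fold changes and stand against 0.0072 for all genes. Counts of called members stand against 13.9% called higher and 11.5% called lower over all tested genes. Of 1851 IDs matched to the lists 1563 passed the filter, which can keep a gene for its level in a single group. Fewer passed in some lists, among them 25 of 47 cytokine and chemokine IDs and 16 of 28 complement and coagulation IDs. The filter also kept 22 of 32 macrophage IDs and 16 of 23 fibrillar collagen IDs. Of the lists, 49 had at most 2 calls in their rarer direction, and in 19 of them that small count moved, within 0 to 3, when a single library was left out.

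**Figure D3:**
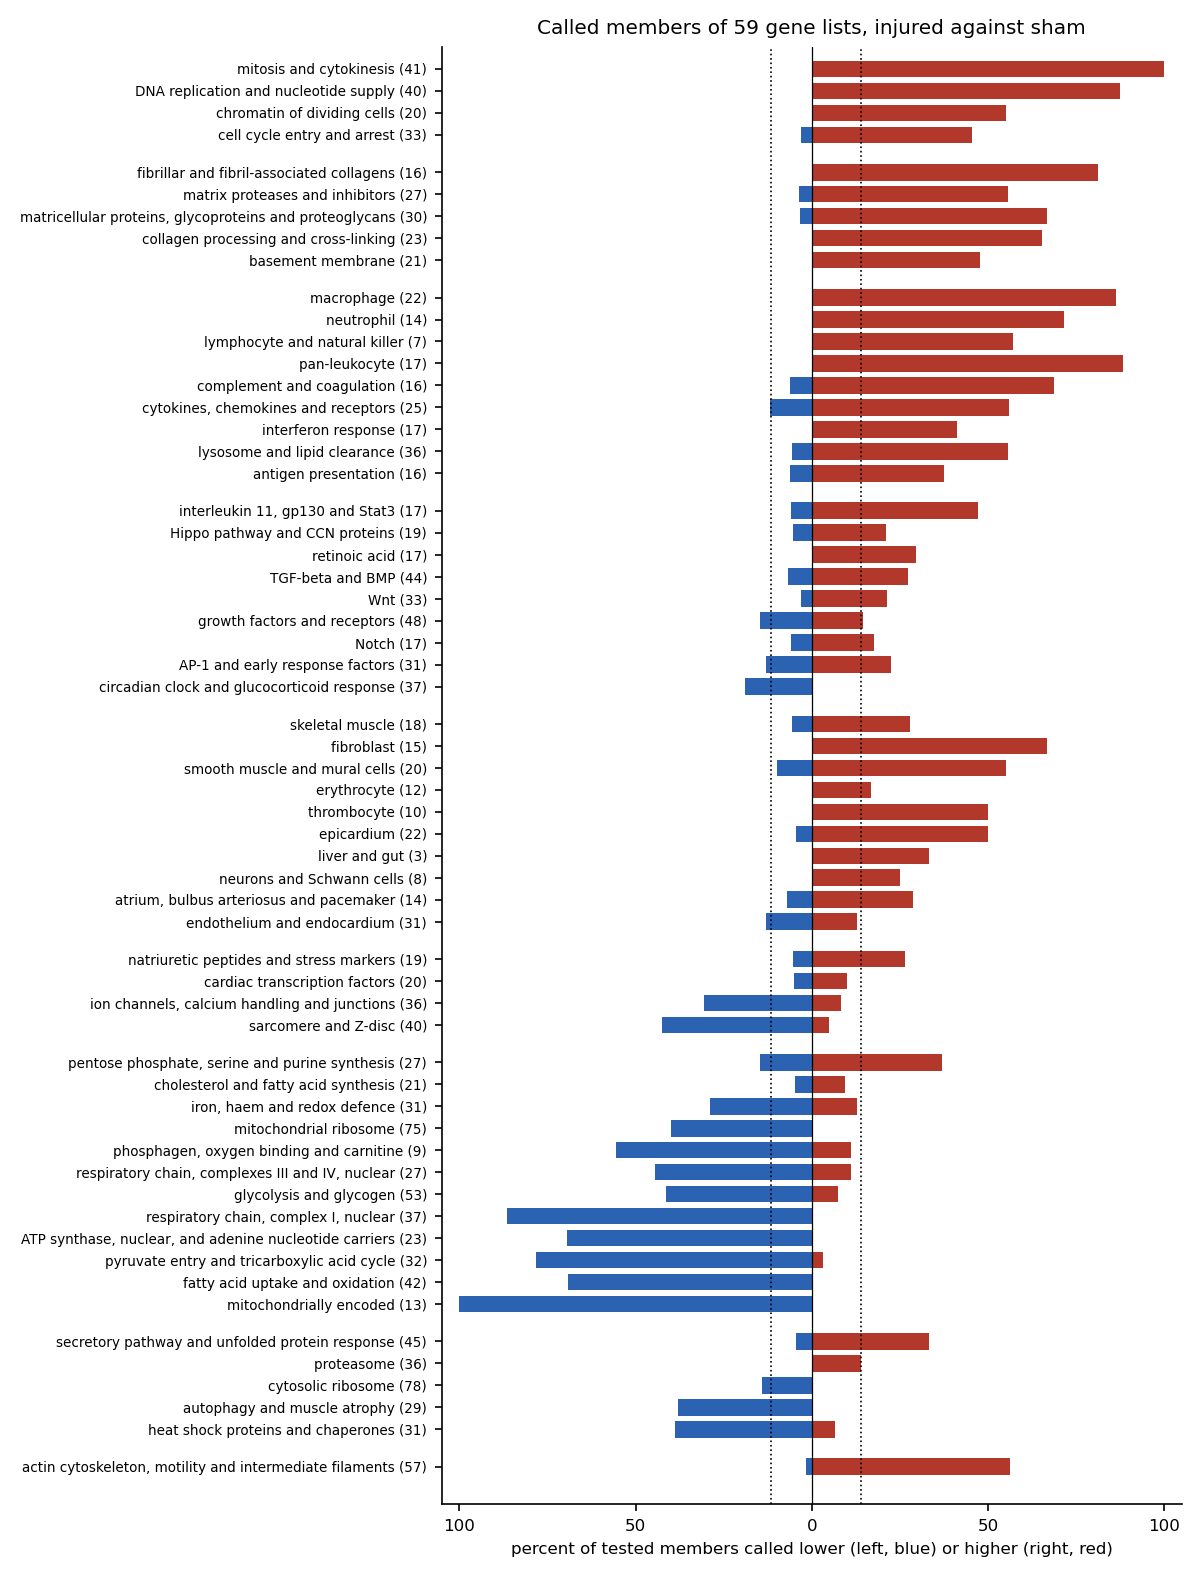
Percent of the tested members of each of 59 gene lists that were called lower (left, blue) or higher (right, red) after injury, grouped by theme and ordered by median log2 fold change, with the number tested in brackets; dotted lines mark the shares over all tested genes, 11.5% lower and 13.9% higher. Mitosis, replication, leukocyte and collagen lists reach furthest right, and the mitochondrially encoded, complex I and tricarboxylic acid cycle lists furthest left.

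Genes of dividing cells rose together. All 41 tested genes of mitosis and cytokinesis were called higher, with a median of 2.65 (2.46 with floor-level genes held at their lower bound). So were 35 of 40 genes of DNA replication and nucleotide supply (median 1.87); none of either list was called lower. For MCM4 (ENSDARG00000040041), a subunit of the replicative MCM helicase, the injured libraries had 66.3, 77.6, 51.0 and 32.2 CPM and the sham libraries 6.84, 8.57, 3.91 and 8.02 (log2 change 3.04 with SE 0.32, edgeR adjusted p = 5.35e-06). Even the lowest injured library, replicate 4, lay far above the highest sham library. RRM2 (ENSDARG00000020711), the regulated subunit of ribonucleotide reductase, stood at 26.0, 12.8, 17.6 and 33.1 CPM after injury against 3.59, 3.18, 1.44 and 2.05 after sham (log2 change 3.10 with SE 0.38, edgeR adjusted p = 2.08e-05). The condensin genes SMC4 (ENSDARG00000038882) and SMC2 (ENSDARG00000017744), which compact chromosomes for mitosis, rose by 3.21 and 3.65 on the log2 scale (SE 0.26 and 0.32, edgeR adjusted p = 6.73e-07 and 9.29e-07). SMC4 had 18.6, 19.999, 12.8 and 13.6 CPM in the injured libraries and 2.74, 1.59, 1.23 and 1.37 in the sham libraries, and the groups did not overlap. The cleavage furrow protein gene anln (ENSDARG00000060917), needed for cytokinesis, went from 3.25, 2.86, 3.91 and 4.61 CPM to 27.4, 23.8, 17.7 and 29.8 CPM (log2 change 2.76 with SE 0.29, edgeR adjusted p = 5.92e-06). For TTK (ENSDARG00000041361), the spindle checkpoint kinase, no sham library had more than 3 counts, and its mean was at least 9.30-fold higher in the injured group (edgeR adjusted p = 9.7e-06).

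The genes that admit cells to the cycle moved in part. Of 33 tested genes of cell cycle entry and arrest, 15 were called higher and 1 lower (median 0.54). Those higher included CDK2 (ENSDARG00000026577), the kinase of the G1 to S step, with 7.03, 7.79, 4.71 and 3.11 CPM against 1.03, 1.11, 1.44 and 2.05 (log2 change 2.00 with SE 0.37, edgeR adjusted p = 0.00075). They also included the transcriptional repressor E2F8 (ENSDARG00000057323) with 6.66, 5.58, 3.97 and 3.01 CPM against 0.855, 0.635, 0 and 0 (log2 change 3.57 with SE 0.55, edgeR adjusted p = 0.000175). The retinoblastoma protein RB1 (ENSDARG00000006782), a brake on the same step, had 26.9, 22.6, 15.0 and 16.9 CPM against 6.497, 7.14, 4.73 and 11.6 (log2 change 1.43 with SE 0.27, edgeR adjusted p = 0.000925). Drivers and brakes of the cycle were thus both among the genes called higher. CCNG1 (ENSDARG00000076667), an abundant p53 target, was not called at 1037, 925, 1161 and 1045 CPM against 1305, 1318, 1223 and 1209.5 (edgeR adjusted p = 0.208). Among chromatin genes of dividing cells 11 of 20 were called higher and none lower. The replication-coupled factors UHRF1 (ENSDARG00000103409) and DNMT1 (ENSDARG00000030756), which copy DNA methylation, rose by 3.12 and 1.69 on the log2 scale (SE 0.33 and 0.21, edgeR adjusted p = 5.92e-06 and 2.49e-05). The chromatin protein gene HMGB2 (ENSDARG00000029722), also used in mammals as a marker of cycling cells, had 195, 151, 118 and 146 CPM against 145, 144, 168 and 174 and was not called (edgeR adjusted p = 0.883).

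The matrix genes rose as a block that spanned structural proteins, the enzymes that process them and the proteases that remodel them. Together the 5 matrix lists had 117 tested genes, of which 73 were called higher and 2 lower, and their share of the tested genes' counts went from 0.768% ± 0.0918 in sham to 2.74% ± 0.177 in injured libraries (SD, n = 4). Of 16 fibrillar and fibril-associated collagens, 13 were called higher (median 1.84). The fibril-associated collagen COL12A1 (ENSDARG00000078322) had 525, 592, 546 and 663 CPM after injury and 40.0, 20.6, 32.9 and 46.9 CPM after sham (log2 change 4.05 with SE 0.33, edgeR adjusted p = 6.73e-07). Its second ID, ENSDARG00000019601, had 171, 211, 259 and 228 CPM against 10.9, 3.65, 7.82 and 10.8 (log2 change 4.71 with SE 0.41, edgeR adjusted p = 9.29e-07). The collagen I genes col1a1a (ENSDARG00000012405), COL1A1 (ENSDARG00000035809) and COL1A2 (ENSDARG00000020007), which form the main fibril of scar, rose by 2.16, 1.83 and 1.84 on the log2 scale (SE 0.18, 0.16 and 0.16, edgeR adjusted p = 8.11e-07, 9.03e-07 and 9.29e-07). In col1a1a this was a step from 482, 421, 357 and 436 CPM to 1970.4, 1822, 1748 and 2022 CPM, with the groups far apart. COL11A1 (ENSDARG00000026165) had at most 3 counts in each sham library and was at least 21.4-fold higher in the injured group. The second type XI gene, col11a1b (ENSDARG00000009014), went from 5.13, 4.76, 3.29 and 8.02 CPM to 87.7, 110.5, 97.4 and 119 CPM (log2 change 4.28 with SE 0.40, edgeR adjusted p = 1.83e-06). The cartilage collagen COL2A1 (ENSDARG00000011407) was not called, at 6.17, 5.93, 4.96 and 8.93 CPM against 4.96, 7.14, 7.20 and 4.95 (edgeR adjusted p = 0.762).

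Basement membrane genes rose in part. Of 21 tested, 10 were called higher and none lower, with a median of 0.54. The linker protein NID2 (ENSDARG00000075707), nidogen 2, had 54.5, 97.8, 57.9 and 58.9 CPM against 18.3, 18.9, 10.9 and 15.2 (log2 change 2.08 with SE 0.21, edgeR adjusted p = 3.61e-06). The laminin chain LAMA1 (ENSDARG00000102277), low in sham at 0.684, 0.476, 0 and 0 CPM, stood at 7.28, 16.4, 12.6 and 14.8 CPM after injury (log2 change 5.32 with SE 0.63, edgeR adjusted p = 1.5e-05). The beta chain LAMB1 (ENSDARG00000101209) had 145, 190.1, 193 and 204 CPM against 79.9, 103, 67.7 and 104 (log2 change 1.05 with SE 0.15, edgeR adjusted p = 0.000107). The beta-2 chain LAMB2 (ENSDARG00000002084), typical of mature muscle and vessel membranes, was not called, with 399, 438, 462 and 433 CPM against 445, 522, 372 and 357 (edgeR adjusted p = 0.891).

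Among matricellular proteins, glycoproteins and proteoglycans 20 of 30 were called higher and 1 lower (median 1.19). Fibronectin, an early provisional matrix protein, was counted under a pair of IDs. FN1 (ENSDARG00000019815) went from 90.1, 109, 47.9 and 157 CPM to 649.6, 1093, 876 and 833 CPM (log2 change 3.09 with SE 0.29, edgeR adjusted p = 2.31e-06). FN1 (ENSDARG00000006526) went from 837, 935, 593 and 1181 CPM to 2784, 2186, 3189 and 2231 CPM (log2 change 1.55 with SE 0.20, edgeR adjusted p = 3.55e-05). In CPM the second ID gained more and in fold change the first. Both IDs of periostin, a matricellular protein of activated fibroblasts, rose. POSTN (ENSDARG00000104267) stood at 578, 704, 756 and 629.8 CPM against 60.2, 136, 58.8 and 118 (log2 change 2.83 with SE 0.28, edgeR adjusted p = 3.48e-06). POSTN (ENSDARG00000043806) rose by 2.52 (SE 0.26, edgeR adjusted p = 4.8e-06). Lumican, LUM (ENSDARG00000045580), a small proteoglycan that spaces collagen fibrils, had 61.7, 37.0, 46.4 and 37.1 CPM against 7.52, 4.45, 4.12 and 4.95 (log2 change 3.10 with SE 0.30, edgeR adjusted p = 2.31e-06). Thrombospondin 3, THBS3 (ENSDARG00000077641), had 218, 334, 277 and 338 CPM against 268, 315, 307 and 264 and was not called (edgeR adjusted p = 0.959). The single member called lower was the elastic fibre protein emilin1a (ENSDARG00000024537) (log2 change -0.77 with SE 0.22, edgeR adjusted p = 0.0155), and its call was lost without sham replicate 2 (edgeR adjusted p = 0.0621).

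Collagen processing and cross-linking genes rose in 15 of 23 cases and fell in none (median 0.82). PLOD2 (ENSDARG00000011821), the lysyl hydroxylase of collagen telopeptides, had 177, 171, 138 and 134 CPM after injury against 20.5, 23.0, 17.5 and 49.5 after sham (log2 change 2.48 with SE 0.26, edgeR adjusted p = 5.35e-06). The lysyl oxidase LOX (ENSDARG00000003259), which cross-links collagen, went from 0.855, 0.635, 1.03 and 1.02 CPM to 26.5, 9.53, 9.18 and 13.0 CPM (log2 change 4.03 with SE 0.46, edgeR adjusted p = 1.11e-05). In PLOD2 the highest sham library was replicate 4, in LOX the highest injured library was replicate 1, and the groups did not overlap in either gene. SERPINH1 (ENSDARG00000075954), the collagen chaperone, had 107, 96.4, 73.3 and 58.4 CPM against 21.5, 21.6, 19.3 and 55.3, again with sham replicate 4 the highest of its group (log2 change 1.504 with SE 0.29, edgeR adjusted p = 0.000905). Of 27 matrix proteases and inhibitors 15 were called higher and 1 lower (median 1.195, or 0.87 with floor genes at their bound). The lower count was 0 without injured replicate 2, 3 or 4 or sham replicate 2, 3 or 4. It was also 0 with limma voom, no filter, the replicate block or the 8 wild-type libraries alone. The membrane-anchored collagenase MMP14 (ENSDARG00000008388) stood at 107, 128, 103 and 87.0 CPM after injury against 25.0, 27.0, 19.1 and 13.3 CPM (log2 change 2.33 with SE 0.20, edgeR adjusted p = 9.29e-07). Its second ID, MMP14 (ENSDARG00000002235), stood at 93.4, 107, 88.5 and 80.1 CPM against 28.9, 26.5, 25.3 and 28.7 CPM (log2 change 1.75 with SE 0.18, edgeR adjusted p = 4.1e-06). Of the inhibitor TIMP2, the ID ENSDARG00000075261 rose from 10.8, 8.41, 4.53 and 12.5 CPM to 132, 104, 63.6 and 84.3 CPM (log2 change 3.39 with SE 0.31, edgeR adjusted p = 1.8e-06). The ID ENSDARG00000061226 was not called at 137, 179, 164 and 109 CPM against 120.2, 149, 112 and 105.3 (edgeR adjusted p = 0.279).

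**Figure D4:**
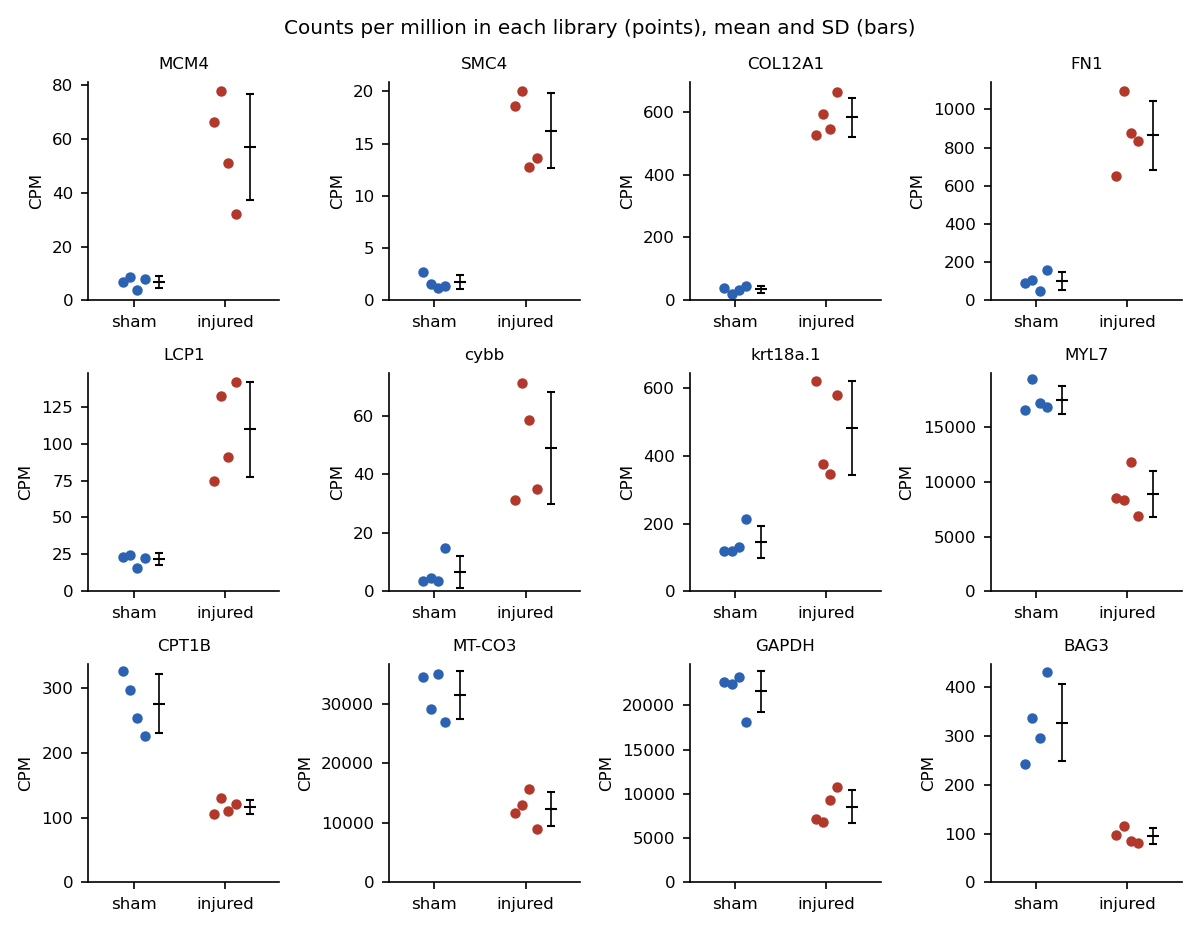
CPM of 12 genes in each wild-type library; points are libraries (sham blue, injured red), and the bar beside them is the mean with the SD (n = 4). The axes start at 0 and differ between genes; the replication, mitosis, matrix, leukocyte and keratin genes are higher after injury, and MYL7, CPT1B, MT-CO3, GAPDH and BAG3 lower, with no overlap of the groups in any of the 12.

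Most of the tested leukocyte genes were called higher. Of 17 genes shared by leukocytes 15 were called higher (median 2.04), of 22 macrophage genes 19 (median 2.32), and of 14 neutrophil genes 10 (median 2.30). Lymphocyte and natural killer genes were called higher in 4 of 7 cases (median 2.05, or 1.11 with floor genes at their bound). Only 7 of the 28 IDs matched to this list passed the filter on low counts. That filter can keep a gene for its level in a single group. The tested members summed to 2.47 to 5.47 CPM in sham and 14.6 to 46.6 CPM in injured libraries. With the 8 wild-type libraries alone 2 were called higher. None of the members of these 4 lists was called lower. Summed over the list, pan-leukocyte genes went from 95.9 to 147 CPM in sham libraries to 419 to 587 CPM in injured ones, and macrophage genes from 201 to 278 CPM to 663 to 931 CPM. The part of these cells in the rise of other lists, such as cell division, lysosome and motility genes, was not tested. L-plastin, LCP1 (ENSDARG00000023188), an actin bundler of all leukocytes, had 74.4, 132, 91.0 and 141 CPM against 23.4, 24.8, 16.0 and 22.9 (log2 change 2.33 with SE 0.24, edgeR adjusted p = 4.92e-06). The complement genes c1qa (ENSDARG00000044613) and c1qb (ENSDARG00000044612), made mostly by macrophages, rose by 2.53 and 2.38 (SE 0.30 and 0.26, edgeR adjusted p = 1.43e-05 and 8.46e-06). The myeloid transcription factor IRF8 (ENSDARG00000056407) went from 7.01, 5.87, 6.17 and 4.27 CPM to 19.5, 22.4, 21.5 and 20.2 CPM (log2 change 1.84 with SE 0.22, edgeR adjusted p = 1.44e-05). The macrophage perforin MPEG1 (ENSDARG00000043093) varied between libraries, with 12.8, 40.2, 26.8 and 7.79 CPM against 13.8, 10.3, 11.7 and 9.90. It was not called (edgeR adjusted p = 0.0844) but passed without injured replicate 4 (edgeR adjusted p = 0.0137).

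Among neutrophil genes the subunits of the phagocyte NADPH oxidase rose, an enzyme that macrophages carry too. Its catalytic subunit, cybb (ENSDARG00000056615), had 31.2, 71.3, 58.4 and 34.9 CPM against 3.42, 4.45, 3.50 and 14.7 (log2 change 2.898 with SE 0.40, edgeR adjusted p = 6.24e-05). The cytosolic subunits NCF4 (ENSDARG00000040812) and NCF1 (ENSDARG00000033735) rose by 2.88 and 3.21 (SE 0.39 and 0.50, edgeR adjusted p = 4.97e-05 and 0.000184). Lysozyme, lyz (ENSDARG00000057789), a defining neutrophil marker, was low and overlapping, at 1.48, 6.16, 1.12 and 3.43 CPM against 1.88, 0.635, 2.26 and 1.37 (edgeR adjusted p = 0.44). The antibody heavy chain gene ighm (ENSDARG00000096355) ranged from 2.18 to 30.9 CPM within the injured group, at 6.29, 30.9, 7.44 and 2.18 CPM against 0.513, 0.635, 0.412 and 1.37 (log2 change 3.95 with SE 0.78, edgeR adjusted p = 0.00121). Injured replicate 2 was the highest injured library for ighm, cybb and MPEG1. The same library led in the immunometabolic enzyme ACOD1 (ENSDARG00000069844), with 4.56, 35.7, 18.5 and 7.58 CPM against 1.03, 0.318, 0.206 and 1.19 (log2 change 4.54 with SE 0.86, edgeR adjusted p = 0.000916). It also led in the fatty acid receptor of myeloid cells GPR84 (ENSDARG00000077308), with 6.41, 28.7, 9.92 and 10.1 CPM against 0.684, 0.953, 0.617 and 1.54 (log2 change 3.82 with SE 0.56, edgeR adjusted p = 0.000106).

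Of 16 tested genes of antigen presentation 6 were called higher and 1 lower (median 0.64). An invariant chain gene of MHC class II, cd74b (ENSDARG00000036628), had 156, 155, 241 and 229 CPM after injury against 51.1, 55.2, 34.2 and 58.7 CPM (log2 change 1.97 with SE 0.25, edgeR adjusted p = 2.49e-05). Its paralog cd74a (ENSDARG00000009087) had 277, 261, 397 and 413 CPM against 97.6, 116, 68.1 and 96.1 CPM (log2 change 1.84 with SE 0.25, edgeR adjusted p = 6.22e-05). The class I light chain gene b2ml (ENSDARG00000015887) fell, from 398, 486, 531 and 469 CPM to 291, 342, 363 and 326 CPM (log2 change -0.51 with SE 0.14, edgeR adjusted p = 0.00988). Complement and coagulation genes rose in 11 of 16 cases and fell in 1 (median 2.00). Properdin, cfp (ENSDARG00000094451), which stabilises the complement convertase, had 62.5, 60.1, 59.8 and 64.3 CPM against 12.3, 15.2, 7.20 and 8.19 (log2 change 2.51 with SE 0.23, edgeR adjusted p = 1.82e-06). The clot-stabilising transglutaminase f13a1b (ENSDARG00000036893) had 72.0, 74.6, 44.1 and 72.2 CPM against 14.5, 15.4, 13.6 and 17.9 (log2 change 2.095 with SE 0.21, edgeR adjusted p = 4.1e-06). Factor D, cfd (ENSDARG00000039579), the protease that starts the alternative pathway, was the one that fell, from 82.9, 85.7, 68.7 and 60.6 CPM to 27.5, 52.0, 42.7 and 46.8 CPM (log2 change -0.82 with SE 0.21, edgeR adjusted p = 0.00798).

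Of 25 cytokines, chemokines and receptors 14 were called higher and 3 lower (median 1.06); the lower count was 1 without injured replicate 1, 1 without injured replicate 4 and 1 without sham replicate 3. The chemokine cxcl18b (ENSDARG00000075045), known in zebrafish from wound inflammation, had 23.2, 35.11, 21.3 and 21.5 CPM against 6.84, 8.26, 7.41 and 5.80 (log2 change 1.83 with SE 0.26, edgeR adjusted p = 8.74e-05). The interleukin 10 receptor chain il10ra (ENSDARG00000100383) had 7.03, 11.5, 8.68 and 11.8 CPM against 2.74, 2.38, 0.823 and 3.24 (log2 change 2.06 with SE 0.30, edgeR adjusted p = 9.11e-05). Interleukin 15, il15 (ENSDARG00000052361), fell from 8.89, 7.78, 7.61 and 3.75 CPM to 2.34, 4.19, 3.10 and 3.32 CPM (log2 change -1.11 with SE 0.29, edgeR adjusted p = 0.00922). Of 17 interferon response genes 7 were called higher and none lower (median 0.97). The interferon regulatory factor irf1b (ENSDARG00000043249) had 14.8, 37.8, 20.3 and 36.3 CPM against 5.47, 6.99, 5.14 and 7.51 (log2 change 2.12 with SE 0.28, edgeR adjusted p = 4.97e-05). The ubiquitin-like modifier isg15 (ENSDARG00000086374) had 7.52, 5.93, 5.70 and 8.72 CPM against 1.197, 1.27, 1.03 and 0.853 (log2 change 2.66 with SE 0.44, edgeR adjusted p = 0.000289). Lysosome and lipid clearance genes rose in 20 of 36 cases and fell in 2 (median 0.65). The cathepsins CTSZ (ENSDARG00000043081) and ctss2.1 (ENSDARG00000074656) rose by 2.25 and 2.99 (SE 0.19 and 0.33, edgeR adjusted p = 9.03e-07 and 7.39e-06). The broadly used cathepsin CTSD (ENSDARG00000057698) was not called at 158, 142, 151 and 168 CPM against 113, 128, 134 and 118 (edgeR adjusted p = 0.0771).

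Signalling genes changed in small numbers, with the ligands and receptors of a few pathways standing out from lists that were mostly flat. Of 17 genes of the interleukin 11, gp130 and Stat3 pathway 8 were called higher and 1 lower (median 0.58). Interleukin 11, il11a (ENSDARG00000037859), a secreted factor that signals through gp130 and is required for heart regeneration in zebrafish, was named for this role. It had 9.99, 3.49, 3.10 and 7.47 CPM after injury and 0, 0, 2.06 and 0.171 CPM after sham (log2 change 3.56 with SE 0.79, edgeR adjusted p = 0.00301). Its shared receptor gp130, il6st (ENSDARG00000104693), had 211, 156, 127 and 204 CPM against 93.4, 83.2, 99.6 and 101 (log2 change 0.89 with SE 0.18, edgeR adjusted p = 0.00164). The related receptor lifrb (ENSDARG00000039863) rose by 2.85 on the log2 scale (SE 0.28, edgeR adjusted p = 3.48e-06). The specific receptor il11ra (ENSDARG00000026736) was called lower (log2 change -0.76 with SE 0.21, edgeR adjusted p = 0.0125), a call lost without sham replicate 1 (edgeR adjusted p = 0.0572). The feedback inhibitor SOCS3 (ENSDARG00000026611) went from 34.2, 36.8, 31.9 and 29.4 CPM to 121, 69.8, 64.2 and 111 CPM (log2 change 1.47 with SE 0.24, edgeR adjusted p = 0.000287). Leptin b, lepb (ENSDARG00000045548), whose enhancer is used to mark regenerating zebrafish tissue, was named after its values were seen. It had no count in any sham library and 11.0, 0.698, 1.12 and 6.44 CPM after injury, and was at least 9.07-fold higher with the floor taken as 3 counts per library, or at least 5.19-fold without injured replicate 1 (edgeR adjusted p = 0.00462). Retinoic acid genes were called higher in 5 of 17 cases (3 without sham replicate 3) and lower in none (median 0.23). The synthetic enzyme ALDH1A2 (ENSDARG00000053493), made by activated epicardium and endocardium, had 336, 294, 197 and 252 CPM against 66.2, 107, 92.0 and 173 (log2 change 1.304 with SE 0.27, edgeR adjusted p = 0.00173). The carrier of retinoic acid to its receptors, CRABP2 (ENSDARG00000030449), had 45.6, 31.4, 28.4 and 34.4 CPM against 4.27, 3.65, 3.50 and 12.3 (log2 change 2.55 with SE 0.37, edgeR adjusted p = 9.5e-05). Sham replicate 4 had the highest sham level of both.

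Of 48 growth factors and receptors, 7 were called higher and 7 lower (median 0.044). In all 29.2% of the list was called, near the 25.3% of all tested genes. Without injured replicate 1, 4 were called lower. The heparin-binding growth factor midkine, MDK (ENSDARG00000036036), had 606, 671, 592 and 528 CPM against 101, 84.5, 73.0 and 155 (log2 change 2.53 with SE 0.21, edgeR adjusted p = 6.73e-07). The EGF receptor ligand HBEGF (ENSDARG00000031246) had 24.8, 13.8, 8.31 and 20.8 CPM against 0.684, 1.27, 1.44 and 0.683 (log2 change 4.05 with SE 0.40, edgeR adjusted p = 3.48e-06). The mitogen igf2b (ENSDARG00000033307) had 117, 84.6, 81.9 and 111 CPM against 45.8, 33.8, 41.8 and 44.7 (log2 change 1.25 with SE 0.18, edgeR adjusted p = 8.17e-05). The VEGF receptor kdrl (ENSDARG00000105215) fell from 304, 272, 298 and 221 CPM to 141, 145, 167 and 194 CPM (log2 change -0.76 with SE 0.15, edgeR adjusted p = 0.00104). Both IDs of its ligand, VEGFA (ENSDARG00000034700) and VEGFA (ENSDARG00000103542), had log2 fold changes of -0.92 and -0.75 (SE 0.25 and 0.23, edgeR adjusted p = 0.0105 and 0.0246). The decoy receptor flt1 (ENSDARG00000019371) changed by -0.92 (SE 0.22, edgeR adjusted p = 0.00481). The lymphatic receptor FLT4 (ENSDARG00000104453) went the other way (log2 change 1.54 with SE 0.41, edgeR adjusted p = 0.00988). The call of the second VEGFA ID was lost without injured replicate 1 or 2 or sham replicate 3 or 4 (edgeR adjusted p from 0.0516 to 0.0789). VEGFA, flt1 and FLT4 were named after their values were seen. The receptor KDR (ENSDARG00000017321) was not called, at 72.5, 89.8, 94.6 and 101 CPM against 108, 97.3, 98.8 and 118 (edgeR adjusted p = 0.4).

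TGF-beta and BMP genes were called higher in 12 of 44 cases and lower in 3 (median 0.20). LTBP1 (ENSDARG00000056922), which stores latent TGF-beta in the matrix, went from 11.6, 18.3, 12.6 and 20.7 CPM to 82.3, 67.0, 55.9 and 60.3 CPM (log2 change 2.07 with SE 0.27, edgeR adjusted p = 3.41e-05). Of the type II receptor TGFBR2, the ID ENSDARG00000059363 rose from 8.55, 8.57, 9.67 and 8.02 CPM to 34.2, 29.8, 33.98 and 45.3 CPM (log2 change 2.04 with SE 0.29, edgeR adjusted p = 7.89e-05). The ID ENSDARG00000034541 was not called at 87.3, 101, 122 and 102 CPM against 121, 133, 127 and 115 (edgeR adjusted p = 0.162). BMP10 (ENSDARG00000109233), a ligand made by heart muscle, fell from 130.3, 164, 187 and 227 CPM to 32.3, 49.998, 65.9 and 83.5 CPM (log2 change -1.61 with SE 0.26, edgeR adjusted p = 0.000262). Notch genes were called higher in 3 of 17 cases and lower in 1 (median -0.068), and the higher count was 1 without injured replicate 4 and 1 without sham replicate 3. These calls made up 23.5% of the Notch list, near the 25.3% of all tested genes. The one lower was the endothelial ligand dll4 (ENSDARG00000070425) (log2 change -0.80 with SE 0.15, edgeR adjusted p = 0.000658). Wnt genes were called higher in 7 of 33 cases and lower in 1 (median 0.18). With 24.2% of its members called, the Wnt list also lay near the 25.3% of all tested genes. The Wnt amplifier RSPO3 (ENSDARG00000070081) stood at 23.7, 31.5, 19.3 and 26.4 CPM against 7.18, 3.81, 4.94 and 3.41 (log2 change 2.38 with SE 0.32, edgeR adjusted p = 5.13e-05). The inhibitor dkk1b (ENSDARG00000045219) stood at 7.40, 3.49, 4.84 and 5.50 CPM against 0.684, 1.11, 1.03 and 0.512 (log2 change 2.65 with SE 0.43, edgeR adjusted p = 0.000262). The effector CTNNB1 (ENSDARG00000014571) had 824, 676, 758 and 807 CPM against 850.3, 786, 749 and 813 and was not called (edgeR adjusted p = 0.765).

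Of 19 genes of the Hippo pathway and CCN proteins 4 were called higher and 1 lower (median 0.28). That was 26.3% of the list, near the 25.3% of all tested genes. CCN2 (ENSDARG00000042934), a matrix protein induced by YAP and TGF-beta, had 219.5, 226, 196 and 427 CPM against 67.2, 94.8, 91.8 and 107 (log2 change 1.57 with SE 0.33, edgeR adjusted p = 0.00207). ANKRD1 (ENSDARG00000075263), a stress-induced ankyrin repeat protein of muscle, had 41.9, 13.7, 8.19 and 31.5 CPM against 1.71, 0.318, 0.617 and 4.44 (log2 change 3.73 with SE 0.60, edgeR adjusted p = 0.000224). The name table does not say which ankrd1 paralog this ID is. YAP1 (ENSDARG00000068401), the pathway's effector, was not called, at 95.0, 122, 119.8 and 100.5 CPM against 143, 109.5, 131 and 101 (edgeR adjusted p = 0.495). AP-1 and early response factors were called higher in 7 of 31 cases and lower in 4 (median -0.15; 2 lower without injured replicate 2 and 2 without sham replicate 2). The AP-1 subunit JUNB (ENSDARG00000074378) had 49.1, 70.11, 73.4 and 131 CPM against 16.8, 13.5, 22.2 and 10.2 (log2 change 2.37 with SE 0.35, edgeR adjusted p = 9.67e-05). The subunit JUN (ENSDARG00000043531) was not called, at 130.3, 268, 215 and 326 CPM against 349, 306, 373 and 203 (edgeR adjusted p = 0.351).

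In genes of the circadian clock and the glucocorticoid response 1 library stood apart. Of 37 tested, 7 were called lower and none higher (median -0.16), and without sham replicate 4 these counts were 9 and 2. The glucocorticoid target KLF9 (ENSDARG00000068194) had 7.15, 6.98, 6.94 and 12.4 CPM after injury and 51.3, 69.4, 63.8 and 14.0 CPM after sham (log2 change -2.56 with SE 0.57, edgeR adjusted p = 0.00301), so that sham replicate 4 lay near the injured level. The pyruvate dehydrogenase kinase PDK2 (ENSDARG00000059054), a fasting-type brake on glucose oxidation, had 25.8, 52.1, 45.9 and 106 CPM against 339, 318, 162 and 87.2 (log2 change -1.98 with SE 0.53, edgeR adjusted p = 0.0112), with sham replicate 4 below injured replicate 4. The clock repressor PER1 (ENSDARG00000012499) had 162, 222, 278 and 233 CPM against 405, 352, 319 and 124 and was called when sham replicate 4 was left out (edgeR adjusted p = 0.299 with it and 0.0332 without it). The glucocorticoid receptor, NR3C1 (ENSDARG00000025032), fell from 96.1, 109, 106 and 84.3 CPM to 45.6, 63.6, 79.1 and 65.1 CPM (log2 change -0.64 with SE 0.17, edgeR adjusted p = 0.011).

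Among markers of cell types other than cardiomyocytes and leukocytes, part of the epicardial, fibroblast, mural and thrombocyte lists was called higher. Of 22 epicardial genes 11 were called higher (7 without sham replicate 3) and 1 lower (median 0.70). Of its defining markers, TBX18 (ENSDARG00000036930) had 59.9, 87.8, 90.5 and 53.3 CPM against 36.4, 36.7, 40.3 and 55.8 (log2 change 0.78 with SE 0.19, edgeR adjusted p = 0.00588), with injured replicate 4 below sham replicate 4. The marker wt1b (ENSDARG00000007990), known from epicardial cells that respond to injury, had 15.8, 24.1, 21.3 and 20.6 CPM against 2.56, 5.40, 3.91 and 5.80 (log2 change 2.2 with SE 0.46, edgeR adjusted p = 0.00193). Another, TCF21 (ENSDARG00000036869), was not called at 28.2, 49.5, 46.9 and 26.2 CPM against 27.4, 28.6, 30.9 and 31.6 (edgeR adjusted p = 0.279). The keratin krt18a.1 (ENSDARG00000018404), of simple epithelia, had 621, 378, 348 and 580.1 CPM against 118, 118, 132 and 215 (log2 change 1.72 with SE 0.22, edgeR adjusted p = 3.08e-05). Podocalyxin, podxl (ENSDARG00000031228), a sialomucin of epicardium and endothelium, fell from 519, 564, 598 and 577 CPM to 352, 318, 459 and 314 CPM (log2 change -0.65 with SE 0.14, edgeR adjusted p = 0.00271). Summed over the list, epicardial genes took 3972 to 5216 CPM in sham libraries and 5597 to 7159 CPM in injured ones.

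Of 15 fibroblast genes 10 were called higher and none lower (median 1.19), and the list summed to 569 to 739 CPM in sham and 964 to 1559 CPM in injured libraries. Their part in the rise of the matrix lists was not tested. The mesenchymal transcription factor twist1b (ENSDARG00000076010) stood at 30.2, 28.8, 16.0 and 18.7 CPM against 3.59, 5.08, 5.76 and 4.44 (log2 change 2.31 with SE 0.31, edgeR adjusted p = 4.97e-05). The secreted CTHRC1 (ENSDARG00000087198), a mammalian marker of activated cardiac fibroblasts, stood at 11.5, 8.14, 3.84 and 6.13 CPM against 1.03, 0.318, 0.412 and 0.683 (log2 change 3.56 with SE 0.49, edgeR adjusted p = 5.67e-05). The receptor PDGFRA (ENSDARG00000070494), carried by resting fibroblasts too, was not called at 74.1, 74.996, 59.5 and 60.9 CPM against 59.5, 56.8, 48.8 and 47.4 (edgeR adjusted p = 0.134). Smooth muscle and mural genes were called higher in 11 of 20 cases and lower in 2 (median 0.78), but the list summed to 1614 to 1957 CPM in sham and 1700.0 to 2158 CPM in injured libraries, which overlapped. The pericyte receptor PDGFRB (ENSDARG00000100897) had 35.9, 63.5, 49.98 and 36.0 CPM against 18.1, 23.8, 25.3 and 18.1 (log2 change 1.12 with SE 0.24, edgeR adjusted p = 0.00242). The smooth muscle actin acta2 (ENSDARG00000045180), a marker of myofibroblasts, was not called at 128, 64.1, 68.2 and 116 CPM against 53.7, 79.9, 68.1 and 66.7 (edgeR adjusted p = 0.159).

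Endothelial and endocardial genes were nearly balanced, with 4 of 31 called higher and 4 lower (median -0.019). In all 25.8% of the list was called, near the 25.3% of all tested genes. Without injured replicate 4, 2 were called lower. The defining junction marker cdh5 (ENSDARG00000075549) had 292, 221, 235 and 291 CPM against 224, 209, 228 and 219 and was not called (edgeR adjusted p = 0.171). Von Willebrand factor, vwf (ENSDARG00000077231), went from 354, 601, 432 and 350.2 CPM to 1195, 889, 868 and 768 CPM (log2 change 1.099 with SE 0.23, edgeR adjusted p = 0.00206). The tight junction gene CLDN5 (ENSDARG00000014059) went from 7.69, 7.94, 4.53 and 4.95 CPM to 32.4, 14.1, 14.9 and 16.8 CPM (log2 change 1.63 with SE 0.28, edgeR adjusted p = 0.000377). Thrombocyte genes were called higher in 5 of 10 cases (median 0.74), with the defining integrin itga2b (ENSDARG00000018687) at 24.3, 32.3, 41.2 and 26.2 CPM against 18.8, 16.4, 20.4 and 8.02 (log2 change 0.97 with SE 0.27, edgeR adjusted p = 0.0146). Summed, they stood at 233 to 305 CPM in sham and 421 to 711 CPM in injured libraries. Of 8 genes of neurons and Schwann cells 2 were called higher (median 0.18). That was 25.0% of the list, beside 25.3% of all tested genes called in either direction.

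The calls of skeletal muscle, erythrocyte and liver genes depended on single libraries. Skeletal muscle genes were called higher in 5 of 18 cases and lower in 1 (median 1.41, or 1.22 with floor genes at their bound). The higher count was 0 without injured replicate 1, 8 without injured replicate 2, 10 without sham replicate 1, 1 without sham replicate 2 and 3 without sham replicate 3. The parvalbumin pvalb1 (ENSDARG00000037789), a calcium buffer of fast skeletal fibres, had 49.2, 1.05, 2.48 and 12.0 CPM against 3.25, 0.159, 0 and 1.71 (log2 change 3.62 with SE 1.03, edgeR adjusted p = 0.015). Its edgeR adjusted p was 0.145 without injured replicate 1. Erythrocyte genes were called higher in 2 of 12 cases (median 0.75), beside 13.9% of all tested genes. That count was 0 without injured replicate 1 or sham replicate 2, 3 or 4, 1 without injured replicate 3 and 4 without injured replicate 2 or 4. The globin hbaa1 (ENSDARG00000097011) had 5801, 1144, 2873 and 1603 CPM against 2282, 1366, 1116 and 1214 and was not called (edgeR adjusted p = 0.119, 0.0458 without injured replicate 2). Atrial, bulbus and pacemaker genes were called higher in 4 of 14 cases and lower in 1 (median 0.18), with 4 to 5 higher when 1 library was left out. The atrial myosin myh6 (ENSDARG00000090637) had 1141, 143, 204 and 742 CPM against 377, 206, 188 and 339.8 (edgeR adjusted p = 0.152, 0.0447 without injured replicate 2). The bulbus elastin elnb (ENSDARG00000069017) rose from 7.52, 7.30, 4.32 and 3.41 CPM to 44.6, 41.3, 18.5 and 49.5 CPM (log2 change 2.76 with SE 0.42, edgeR adjusted p = 0.000152). Injured replicate 1 was the highest library for pvalb1, hbaa1 and myh6, and injured replicate 4 was the second highest for pvalb1 and myh6. Summed over the lists, injured replicate 1 had the highest blood, and atrial and bulbus, totals of the 8 libraries (7992 and 4305 CPM). For skeletal muscle the total was 6960 CPM in injured replicate 1, a sum in which abundant members weigh most. It ran from 5006 to 7680 CPM in injured libraries and from 7213 to 10090 CPM in sham ones. That total cannot show the level of scarce members such as pvalb1. The part of blood, atrial, bulbus or skeletal muscle tissue in other results was not tested. Of 3 tested liver and gut genes 1 was called higher. It was transferrin, tfa (ENSDARG00000016771) (log2 change 1.21 with SE 0.35, edgeR adjusted p = 0.0168), a call lost without injured replicate 2 (edgeR adjusted p = 0.0672) or sham replicate 3 (0.0512).

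Genes of the contractile apparatus fell in part and by modest factors. Of 40 sarcomere and Z-disc genes 17 were called lower and 2 higher (median -0.49); 11 were called lower without injured replicate 2. The regulatory myosin light chain MYL7 (ENSDARG00000019096) had 8542, 8308, 11836 and 6908 CPM after injury against 16563, 19326, 17173 and 16803 after sham (log2 change -0.97 with SE 0.17, edgeR adjusted p = 0.000551). The ventricular heavy chain MYH7 (ENSDARG00000079782) stood at 17089.8, 20955, 26557 and 27614 CPM against 34770.2, 37538, 34528 and 36219 (log2 change -0.63 with SE 0.15, edgeR adjusted p = 0.00449). Cardiac troponin T, TNNT2 (ENSDARG00000020610), stood at 2530.2, 2628, 3127 and 3420.2 CPM against 4400.5, 5542, 5172 and 4638 (log2 change -0.75 with SE 0.17, edgeR adjusted p = 0.00269). In each of these genes every injured library lay below every sham library. The Z-disc protein ldb3b (ENSDARG00000099974) fell from 1855, 1948, 1859 and 1559.7 CPM to 532, 761, 1036 and 842 CPM (log2 change -1.19 with SE 0.20, edgeR adjusted p = 0.000411). A tropomyosin ID, tpm1 (ENSDARG00000087402), went against the list, from 14.7, 17.6, 15.2 and 15.2 CPM to 73.5, 25.2, 19.3 and 40.6 CPM (log2 change 1.34 with SE 0.32, edgeR adjusted p = 0.00573), with a log2 fold change of 0.86 without injured replicate 1.

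The cardiac actin actc1a (ENSDARG00000042535) was not called, at 12372, 12142, 13928 and 18845 CPM against 15652, 17008, 15177 and 16705 (edgeR adjusted p = 0.533). Its near copy actc1c (ENSDARG00000076126) had 2079, 1842, 3408 and 4.78 CPM against 5119, 5552, 3786 and 4694 and was not called (log2 fold change -1.38, SE 1.39, edgeR adjusted p = 0.511). Injured replicate 4 alone had almost no actc1c. Reads of such similar genes may be divided unevenly by the counting, so the values of the pair are uncertain. Their sum was 14452, 13985, 17336 and 18849.7 CPM after injury against 20771, 22559.6, 18964 and 21399 CPM after sham.

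Of 36 genes of ion channels, calcium handling and junctions 11 were called lower and 3 higher (median -0.28); 7 were called lower without injured replicate 2. The calcium pump of the sarcoplasmic reticulum, atp2a2a (ENSDARG00000029439), fell from 6556, 6772, 7107 and 6591 CPM to 2648, 2679.5, 4312 and 4745 CPM (log2 change -0.91 with SE 0.19, edgeR adjusted p = 0.00215), with injured replicates 1 and 2 the lowest. The connexin GJA5 (ENSDARG00000040065), of conducting and coronary cells, had 23.4, 26.2, 39.2 and 44.7 CPM against 81.0, 64.8, 72.4 and 64.9 (log2 change -1.08 with SE 0.17, edgeR adjusted p = 0.000213). N-cadherin, CDH2 (ENSDARG00000018693), which joins cardiomyocytes and is also made by epicardial and mesenchymal cells, rose from 419.6, 397, 352 and 463 CPM to 594, 568, 608 and 558 CPM (log2 change 0.51 with SE 0.12, edgeR adjusted p = 0.00467). Cardiac transcription factors were called in 3 of 20 cases, 2 higher and 1 lower (median -0.13). That was 15.0% of the list, beside 25.3% of all tested genes. GATA5 (ENSDARG00000017821), of early heart specification, was not called at 288, 269.9, 244 and 238 CPM against 261, 248, 241 and 244 (edgeR adjusted p = 0.721). Neither was HAND2 (ENSDARG00000008305), of ventricular growth, at 208, 149.6, 156 and 148 CPM against 151, 167, 162 and 238 (edgeR adjusted p = 0.717). RUNX1 (ENSDARG00000087646), a blood transcription factor whose loss improves heart regeneration in zebrafish mutants, rose from 0.855, 0.953, 1.85 and 3.24 CPM to 4.81, 4.88, 3.60 and 6.02 CPM (log2 change 1.49 with SE 0.38, edgeR adjusted p = 0.00732).

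Natriuretic peptide and stress genes gave a mixed result, with 5 of 19 called higher and 1 lower (median 0.47). The peptide genes nppa (ENSDARG00000052960) and nppb (ENSDARG00000052958), classic markers of wall stress, were not called (edgeR adjusted p = 0.97 and 0.317). The injured libraries had 2876, 1183, 1069.6 and 1329 CPM of nppa against 1387, 1481, 1361 and 2312 in sham. For nppb they had 629.8, 109.9, 116 and 261 CPM against 89.6, 159.7, 217 and 235, and both genes were highest in injured replicate 1. The third peptide gene, nppal (ENSDARG00000052948), was called higher at 109, 2.44, 3.72 and 9.45 CPM against 0.513, 0.159, 0.206 and 0.171 (edgeR adjusted p = 0.000944), and injured replicate 1 held most of it. With no sham library above 3 counts, it was at least 58.6-fold higher, or at least 9.82-fold without injured replicate 1, and limma voom did not call it (adjusted p = 0.0631). The clearance receptor of these peptides, NPR3 (ENSDARG00000035253), fell from 18.6, 14.1, 14.0 and 30.2 CPM to 5.30, 5.70, 5.83 and 6.96 CPM (log2 change -1.69 with SE 0.35, edgeR adjusted p = 0.00197).

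Genes of oxidative metabolism fell widely. Over 6 lists, from fatty acid uptake to the mitochondrially encoded subunits, 127 of 174 tested genes were called lower and 4 higher. The share of these lists in the tested genes' counts went from 28.8% ± 1.97 in sham to 18.5% ± 2.45 in injured libraries (SD, n = 4). The 13 mitochondrially encoded genes held most of that share, at 209600 to 264800 CPM in sham and 65390 to 127400 CPM in injured libraries. Of 42 fatty acid genes 29 were called lower and none higher (median -0.79). The gatekeeper of mitochondrial fatty acid import, CPT1B (ENSDARG00000058285), had 105.1, 130.2, 111 and 121 CPM after injury against 327, 298, 254 and 226 CPM after sham (log2 change -1.24 with SE 0.15, edgeR adjusted p = 1.77e-05). Its paralog cpt1ab (ENSDARG00000062054) had 149, 177, 182 and 258 CPM against 463, 422, 498 and 437 CPM (log2 change -1.25 with SE 0.15, edgeR adjusted p = 2.08e-05). The fatty acid carrier of heart cytosol, FABP3 (ENSDARG00000023290), had 238, 257, 244 and 244 CPM against 553, 545, 655 and 516 CPM (log2 change -1.21 with SE 0.13, edgeR adjusted p = 8.87e-06).

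Of 32 genes of pyruvate entry and the tricarboxylic acid cycle 25 were called lower and 1 higher (median -0.68). Malate dehydrogenase, MDH2 (ENSDARG00000043371), went from 3909.6, 4334, 3987 and 3717 CPM to 1619.6, 1755, 2141 and 2264 CPM (log2 change -1.04 with SE 0.15, edgeR adjusted p = 0.00011). The succinate dehydrogenase subunit SDHA (ENSDARG00000016721) went from 1034, 1132, 924 and 1088 CPM to 563, 511, 658 and 637 CPM (log2 change -0.82 with SE 0.14, edgeR adjusted p = 0.000333). The member called higher was an OGDH ID, ENSDARG00000103428 (log2 change 0.62 with SE 0.21, edgeR adjusted p = 0.0376). Its log2 fold change was 0.36 without injured replicate 1 (edgeR adjusted p = 0.178), and its edgeR adjusted p was 0.0524 to 0.0994 without injured replicate 4 or sham replicate 1, 2 or 3.

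Nuclear genes of complex I were called lower in 32 of 37 cases and higher in none (median -0.58). The lower count was 22 without injured replicate 2 or sham replicate 2. Nuclear genes of complexes III and IV were called lower in 12 of 27 and higher in 3 (median -0.51, 1 higher without injured replicate 1). Those of ATP synthase and the adenine nucleotide carriers were called lower in 16 of 23 (median -0.62). Complex I subunit NDUFV2 (ENSDARG00000013044) had 114, 111, 142 and 111 CPM against 219, 256, 189 and 221 (log2 change -0.89 with SE 0.16, edgeR adjusted p = 0.000586). Isoforms of complex IV went apart. The muscle-type subunit cox7a1 (ENSDARG00000069464) fell from 308, 380.2, 375 and 372 CPM to 151, 150.2, 200.3 and 146 CPM (log2 change -1.15 with SE 0.17, edgeR adjusted p = 9.67e-05). The subunit cox6a1 (ENSDARG00000022438), whose mammalian counterpart is the non-muscle form, rose from 37.96, 41.1, 30.7 and 51.2 CPM to 158, 70.23, 89.2 and 57.2 CPM (log2 change 1.22 with SE 0.26, edgeR adjusted p = 0.00247). The adenine nucleotide carrier SLC25A5 (ENSDARG00000092553) stood at 6884, 8352, 10210.0 and 12624 CPM against 19029.6, 21008, 20464 and 19389 (log2 change -1.07 with SE 0.19, edgeR adjusted p = 0.000446). The proteolipid subunit atp5mc1 (ENSDARG00000056008) of ATP synthase was not called at 713, 469, 599 and 428 CPM against 505, 595, 559 and 684 (edgeR adjusted p = 0.808).

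All 13 mitochondrially encoded genes were called lower (median -1.25). MT-CO3 (ENSDARG00000063912) had 11593, 12959.8, 15653 and 8902 CPM against 34514, 29105, 35043 and 26969.7 (log2 change -1.36 with SE 0.16, edgeR adjusted p = 1.43e-05). MT-CYB (ENSDARG00000063924) had 11889, 11676, 14853 and 5969 CPM against 30445, 22131, 28353 and 22408 (log2 change -1.22 with SE 0.20, edgeR adjusted p = 0.000333), with injured replicate 4 the lowest library in both. The mitochondrial ribosome, made by nuclear genes, was called lower in 30 of 75 cases and higher in none (median -0.48). Its lower count was 20 without injured replicate 2 or sham replicate 2. Its subunit gene MRPS35 (ENSDARG00000038456) had 30.7, 29.999, 39.7 and 38.7 CPM against 63.8, 76.4, 70.0 and 62.3 (log2 change -0.97 with SE 0.14, edgeR adjusted p = 8.33e-05). Removing the mitochondrially encoded genes before scaling left 3762 genes called, 2066 higher and 1696 lower. In that fit 32 of the nuclear complex I genes and 29 of the fatty acid genes were called lower.

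**Figure D5:**
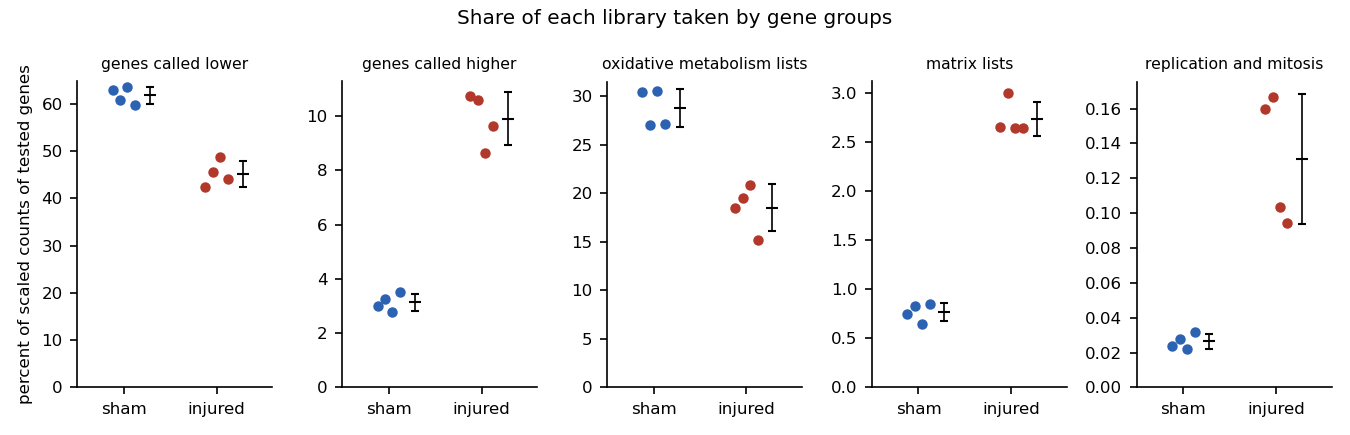
Share, in percent of the scaled counts of tested genes, taken by the genes called lower, the genes called higher, and the oxidative, matrix, and replication and mitosis lists; points are the 8 libraries and bars the mean with the SD (n = 4), with axes that start at 0. The oxidative lists go from 28.8% in sham to 18.5% after injury and the matrix lists from 0.768% to 2.74%; the call itself fixes the direction in the panels of called genes.

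Glycolysis genes fell in part. Of 53 glycolysis and glycogen genes 22 were called lower and 4 higher (median -0.54); 13 were called lower without injured replicate 2. GAPDH (ENSDARG00000043457) went from 22573, 22354, 23149 and 18139.7 CPM to 7177, 6862, 9267 and 10820.1 CPM (log2 change -1.34 with SE 0.17, edgeR adjusted p = 3.26e-05). The regulatory kinase PFKFB2 (ENSDARG00000002037), which makes the activator of phosphofructokinase in heart, went from 28.4, 14.6, 19.5 and 27.5 CPM to 4.69, 8.26, 8.81 and 6.75 CPM (log2 change -1.66 with SE 0.23, edgeR adjusted p = 7.41e-05). Hexokinase 2, HK2 (ENSDARG00000101482), which commits glucose to the pathway, rose from 2.91, 1.27, 0.823 and 4.78 CPM to 12.3, 14.1, 9.55 and 16.3 CPM (log2 change 2.40 with SE 0.46, edgeR adjusted p = 0.00102). Pyruvate kinase M, PKM (ENSDARG00000099730), was not called at 1629, 925, 1263 and 975 CPM against 1118, 1263, 1078 and 1371 (edgeR adjusted p = 0.974). Of 27 genes of the pentose phosphate path and of serine and purine synthesis, which feed nucleotide production, 10 were called higher and 4 lower (median 0.32). The one-carbon enzyme SHMT1 (ENSDARG00000052816) had 22.6, 19.2, 15.6 and 12.4 CPM against 2.91, 2.86, 4.94 and 8.53 (log2 change 1.86 with SE 0.31, edgeR adjusted p = 0.000315). The last enzyme of serine synthesis, PSPH (ENSDARG00000040314), fell from 58.99, 79.4, 81.7 and 77.8 CPM to 27.7, 31.2, 54.3 and 39.5 CPM (log2 change -0.96 with SE 0.22, edgeR adjusted p = 0.00311).

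Cholesterol and fatty acid synthesis was called higher in 2 of 21 cases (0 without injured replicate 1 or sham replicate 1, 2 or 3, and 1 without injured replicate 2) and lower in 1 (median 0.078). That was 14.3% of the list, beside 25.3% of all tested genes. The acetyl-CoA carboxylase ACACB (ENSDARG00000061994), whose product restrains fatty acid import into mitochondria, was the one lower, at 179.8, 301, 352 and 338 CPM against 608, 621, 549 and 423 (log2 change -0.91 with SE 0.24, edgeR adjusted p = 0.00992). Phosphagen, oxygen binding and carnitine genes were called lower in 5 of 9 cases and higher in 1 (median -0.50). The mitochondrial creatine kinase CKMT2 (ENSDARG00000039929) fell from 776, 780.5, 621 and 654 CPM to 313, 347, 404 and 478 CPM (log2 change -0.88 with SE 0.17, edgeR adjusted p = 0.00104). The cytosolic isozyme CKB differed by ID. ENSDARG00000069752 rose from 59.2, 52.1, 59.1 and 99.2 CPM to 187, 122, 119 and 152 CPM (log2 change 1.11 with SE 0.22, edgeR adjusted p = 0.00134), and ENSDARG00000043257 was not called at 479, 391, 524 and 461 CPM against 547, 638, 530.5 and 555 (edgeR adjusted p = 0.126). Iron, haem and redox genes were called lower in 9 of 31 cases and higher in 4 (median 0.042); 2 were called higher without injured replicate 1 or sham replicate 1, 2 or 3. Mitochondrial superoxide dismutase, SOD2 (ENSDARG00000042644), went from 335, 412, 369 and 409 CPM to 186, 182, 214 and 184 CPM (log2 change -0.99 with SE 0.14, edgeR adjusted p = 6.83e-05). Haem oxygenase, HMOX1 (ENSDARG00000027529), which degrades haem from lysed red cells, rose from 15.9, 11.9, 11.3 and 10.1 CPM to 36.1, 28.7, 29.9 and 55.0 CPM (log2 change 1.61 with SE 0.30, edgeR adjusted p = 0.000793).

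Folding genes of the secretory pathway and of the cytosol were called in part. Of 45 genes of the secretory pathway and unfolded protein response 15 were called higher and 2 lower (median 0.36). The higher count was 8 without injured replicate 1, 9 without sham replicate 1 or 2, and 7 without sham replicate 3. The retrieval receptor KDELR3 (ENSDARG00000040912) had 9.13, 11.2, 7.69 and 10.6 CPM against 3.93, 3.33, 3.70 and 4.78 (log2 change 1.29 with SE 0.22, edgeR adjusted p = 0.00034). The disulphide isomerase PDIA4 (ENSDARG00000018491) had 53.1, 42.0, 29.6 and 28.5 CPM against 14.2, 14.6, 16.5 and 25.8 (log2 change 1.11 with SE 0.23, edgeR adjusted p = 0.0021). The main chaperone of the endoplasmic reticulum, HSPA5 (ENSDARG00000103846), was not called at 370.0, 243, 146 and 227 CPM against 139, 180.0, 176 and 346 (edgeR adjusted p = 0.63). In the cytosol, 12 of 31 heat shock proteins and chaperones were called lower and 2 higher (median -0.59), with lower counts of 6 without sham replicate 4 and 7 without injured replicate 4. BAG3 (ENSDARG00000039486), the co-chaperone that clears damaged sarcomere proteins, fell from 243, 336, 296 and 430.1 CPM to 96.9, 116, 83.7 and 81.5 CPM (log2 change -1.79 with SE 0.31, edgeR adjusted p = 0.000446). The master regulator hsf1 (ENSDARG00000008818) went from 67.4, 63.2, 57.6 and 64.3 CPM to 33.7, 36.6, 39.7 and 39.9 CPM (log2 change -0.75 with SE 0.13, edgeR adjusted p = 0.000521). Sham replicate 4 had the highest BAG3 level of all 8 libraries, and the other 3 sham libraries still lay above every injured one.

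Cytosolic ribosomal protein genes were called lower in 11 of 78 cases and higher in none (median -0.25), beside 11.5% of all tested genes. The count was 5 to 7 without injured replicate 1, 2 or 4 or sham replicate 2 or 3. RPLP0 (ENSDARG00000051783), of the ribosomal stalk, was not called at 2593, 2625, 2777 and 2602 CPM against 2532, 3206, 3001 and 2688 (edgeR adjusted p = 0.575). Proteasome genes were called higher in 5 of 36 cases (median 0.36), no more than the 13.9% of all tested genes. That count also moved with single libraries. It was 1 without injured replicate 1, sham replicate 1 or sham replicate 3, 2 without injured replicate 2 or sham replicate 2, 3 without injured replicate 4, and 8 without injured replicate 3 or sham replicate 4. The ubiquitin receptor subunit psmd4b (ENSDARG00000023279) had 36.5, 26.2, 21.3 and 29.4 CPM against 13.3, 16.4, 14.4 and 24.2 (log2 change 0.73 with SE 0.19, edgeR adjusted p = 0.00822). Autophagy and muscle atrophy genes were called lower in 11 of 29 cases and higher in none (median -0.45); the count was 5 without injured replicate 1 and 6 without injured replicate 2 or sham replicate 1, 2 or 3. The transcription factor foxo3b (ENSDARG00000042904), which drives both programmes in mammals, fell from 307, 380.2, 293 and 185 CPM to 123, 134, 147 and 138 CPM (log2 change -1.101 with SE 0.27, edgeR adjusted p = 0.00673).

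Genes of the cytoskeleton of moving cells rose. Of 57 genes of actin dynamics, motility and intermediate filaments 32 were called higher and 1 lower (median 0.68). Non-muscle myosin, MYH9 (ENSDARG00000063295), had 38.105, 51.9, 29.4 and 47.8 CPM against 9.75, 7.78, 5.76 and 8.36 (log2 change 2.39 with SE 0.20, edgeR adjusted p = 8.11e-07). The actin-branching Arp2/3 subunit ARPC1B (ENSDARG00000027063), common in leukocytes, had 113, 126, 89.4 and 132 CPM against 20.9, 30.5, 15.8 and 27.6 (log2 change 2.28 with SE 0.22, edgeR adjusted p = 2.31e-06). The fibronectin and vitronectin receptor chain ITGAV (ENSDARG00000006314) had 77.3, 88.7, 72.1 and 82.5 CPM against 29.1, 25.6, 29.8 and 32.1 (log2 change 1.46 with SE 0.17, edgeR adjusted p = 1.1e-05). The member called lower was VIM (ENSDARG00000010008), the mesenchymal intermediate filament, at 48.1, 78.1, 91.3 and 64.5 CPM against 122, 174, 109 and 94.0 (log2 change -0.83 with SE 0.22, edgeR adjusted p = 0.0103), a call lost without sham replicate 2 (edgeR adjusted p = 0.0501). Cytoplasmic actin, actb2 (ENSDARG00000037870), was not called at 3405, 4762, 5564 and 5733 CPM against 4291, 4418, 4092 and 3616 (edgeR adjusted p = 0.257).

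Among genes that reached 10 CPM in a group, and whose groups did not overlap, those ranked 6 to 20 by fold change added members outside the lists. Among those higher after injury was the secreted protein PAMR1 (ENSDARG00000103184), at 17.6, 13.7, 14.1 and 19.7 CPM against 0.684, 0.635, 0.206 and 0.683 (log2 change 4.81 with SE 0.42, edgeR adjusted p = 9.29e-07). Another was ITGBL1 (ENSDARG00000040985), at 17.1, 33.0, 25.3 and 20.9 CPM against 1.197, 0.635, 1.65 and 2.22 (log2 change 4.08 with SE 0.42, edgeR adjusted p = 4.8e-06). The adhesion molecule NCAM1 (ENSDARG00000056181), of neural and developing heart cells, stood at 10.6, 14.5, 9.55 and 14.9 CPM against 0.513, 0.635, 1.23 and 0.853 (log2 change 3.94 with SE 0.39, edgeR adjusted p = 3.61e-06). The amino acid transporter SLC43A2 (ENSDARG00000061120) rose from 0.855, 1.43, 0.206 and 2.39 CPM to 14.4, 18.3, 19.8 and 15.2 CPM (log2 change 3.74 with SE 0.40, edgeR adjusted p = 6.23e-06). Its second ID, ENSDARG00000036848, named after its values were seen, fell from 131, 198, 142 and 155 CPM to 38.105, 52.6, 46.6 and 70.5 CPM (log2 change -1.59 with SE 0.25, edgeR adjusted p = 0.000173). Among those lower was the glucose-6-phosphatase G6PC1 (ENSDARG00000014967), the last step of glucose release, at 16.0, 30.9, 33.98 and 30.7 CPM against 109, 156, 109 and 84.3 (log2 change -2.04 with SE 0.31, edgeR adjusted p = 0.00013). The insulin receptor substrate IRS1 (ENSDARG00000054087) stood at 39.2, 67.4, 39.9 and 33.5 CPM against 122, 218, 224 and 105.5 (log2 change -1.89 with SE 0.45, edgeR adjusted p = 0.00525). The heart-enriched myosin kinase MYLK4 (ENSDARG00000055412) stood at 63.8, 104, 44.0 and 39.8 CPM against 210.0, 288, 273 and 279 (log2 change -2.06 with SE 0.40, edgeR adjusted p = 0.000995). PAQR9 (ENSDARG00000052059), a membrane protein of the progestin and adiponectin receptor family, fell from 186, 125, 116 and 119 CPM to 38.2, 32.7, 24.9 and 27.2 CPM (log2 change -2.15 with SE 0.25, edgeR adjusted p = 1.18e-05).

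IDs that share a symbol in the name table allowed a comparison within symbols. Of 802 symbols with 2 tested IDs, both IDs were called higher in 43 and lower in 28, 1 was called higher and the other not in 130, 1 lower and the other not in 143, and neither in 445. In 13 symbols the IDs were called in opposite directions, where 13.9% of all tested genes were called higher and 11.5% lower. Whether 13 differs from the number in pairs drawn at random was not tested. For ANTXR2, a collagen-binding membrane receptor, ENSDARG00000104118 rose from 19.2, 17.9, 12.6 and 19.3 CPM to 32.1, 45.9, 39.1 and 35.19 CPM (log2 change 1.14 with SE 0.21, edgeR adjusted p = 0.000616). The other ID, ENSDARG00000063011, fell from 34.4, 33.0, 39.1 and 25.4 CPM to 12.2, 15.3, 17.9 and 17.5 CPM (log2 change -1.06 with SE 0.17, edgeR adjusted p = 0.00027). For ATP6V0C, a subunit of the proton pump of lysosomes, ENSDARG00000057853 rose from 54.0, 54.6, 59.5 and 65.4 CPM to 99.5, 109, 90.2 and 84.1 CPM (log2 change 0.71 with SE 0.15, edgeR adjusted p = 0.00226). The other ID, ENSDARG00000036577, fell from 64.3, 60.3, 64.6 and 69.1 CPM to 51.5, 37.4, 44.4 and 33.5 CPM (log2 change -0.63 with SE 0.16, edgeR adjusted p = 0.00896). In each of the 4 IDs the groups did not overlap. These examples were chosen after their values were seen, and reads shared between similar genes could shift either value.

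By CPM gained or lost, which favours abundant genes, the 10 largest gains of called genes were those of both FN1 IDs, the 3 collagen I genes, krt8 (ENSDARG00000058358), ANXA2, a MYH6 ID, POSTN and COL12A1, and ran from 546 to 1711 CPM between group means. The 10 largest losses were those of 6 mitochondrially encoded genes, GAPDH, MYH7, SLC25A5 and MYL7. The annexin ANXA2 (ENSDARG00000003216), a membrane repair and plasminogen-binding protein, was among the gains, at 1613, 952, 825 and 1202 CPM against 269, 363, 273 and 501 (log2 change 1.71 with SE 0.23, edgeR adjusted p = 5.01e-05). The gains also held a MYH6 ID, ENSDARG00000079564, which went from 185, 689, 289 and 501 CPM to 1392, 675, 1298 and 1032 CPM (log2 change 1.40 with SE 0.35, edgeR adjusted p = 0.00683). It is distinct from the myh6 ID of the atrial list, and reads may be shared among these similar myosin genes.

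The same contrast in the ankrd1a mutants used other libraries, and the difference between the responses was tested as the interaction of injury and genotype. In edgeR's quasi-likelihood test no gene was called (0% of 14986), and 1155 genes, 7.71%, had an unadjusted p below 0.05. Several genes had unlike estimates in the mutants without a call, of which irf1b and BAG3 were described above and NR4A3 was not. NR4A3 (ENSDARG00000055854), an orphan nuclear receptor of the early response, had 13.6, 33.7, 10.3 and 21.3 CPM after injury and 239, 491, 172 and 53.1 CPM after sham in wild type (log2 change -3.60 with SE 0.69, edgeR adjusted p = 0.000944). In mutants it changed by 0.83 on the log2 scale (SE 0.63), and the difference between these estimates, 4.43, had an edgeR adjusted p of 0.187. For irf1b the estimates were 2.12 in wild type and 0.55 in mutants (interaction edgeR adjusted p = 0.286), and for BAG3 they were -1.79 and -0.27 (interaction edgeR adjusted p = 0.32). For MCM4 (3.04 and 3.07), the first COL12A1 ID (4.05 and 4.08) and CPT1B (-1.24 and -1.36) the estimates lay within 1 SE of each other.

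Leaving out both libraries that stood apart on the second component, injured replicate 1 and sham replicate 4, a choice made after seeing the data, left 3035 genes called, 1729 higher and 1306 lower, of which 2774 were also called with all libraries, each in the same direction. In that fit, whose filter kept a different set of genes, 36 mitosis genes, 33 replication genes and 13 fibrillar collagens were called higher and 25 fatty acid genes lower. The counts of lower calls were then 10 for the sarcomere, 14 for glycolysis and 4 for heat shock proteins, and skeletal muscle and erythrocyte genes had no higher call.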

How the data were processed

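Poly(A) RNA of zebrafish ventricles was sequenced from 16 libraries of 3 pooled ventricles each, 4 per group. The authors deposited expected counts (estimated reads per gene, not normalized) for 32520 gene IDs. Per the submitters' processing notes the tools were fastp 0.23.4, STAR 2.7.0 and 2.7.10, and RSEM 1.3.3. The genome build, annotation and strand setting are not given in the sources used here. Without a known strand setting, overlapping and antisense genes may share reads, and expected counts divide reads among similar genes by a model. All 16 columns were mapped to samples by name, and 0 columns were left unused.

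The expected counts were rounded to whole numbers. In R 4.3.3, edgeR 4.0.16 filtered genes with filterByExpr (14986 kept), scaled libraries by TMM (factors 0.815 to 1.26) and fitted the quasi-likelihood model with 4 group means over all 16 libraries. Injured minus sham wild type was tested with the F test and Benjamini-Hochberg adjustment over all tested genes. CPM were computed with TMM factors, and the SE of a log2 fold change is its estimate over the square root of F. Genes with at most 3 counts in every sham library are given as lower bounds, against a floor of 3 counts per library, which covers counting error only. In simulated counts 200 of 14709 genes were changed, all with a mean of at least 10 CPM, against 3798 genes called in the data. This test recovered 77% of those changed by 1 and 100% of those changed by 2 on the log2 scale. Of its calls 5.85% were false. Each gene was drawn with the spread typical of its level, without a spread of its own and with no library set apart. These rates therefore need not hold in the data. Genes under 10 CPM were not changed in the simulation, so recovery at that level was not measured.

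Symbols came from the name table given with the data (29201 of the IDs have one, and 6136 IDs share theirs with another ID). Of 1666 list names 1588 were matched. Of these, 539 matched the zebrafish symbol exactly and 629 a human-style symbol that differed only in letter case. The other 420 matched a symbol without the paralog suffix, so that a symbol can stand for several paralogs. The members and lists were chosen with earlier results of these data known. Named genes are, for each list, up to 4 called members with the smallest p, the called member with the smallest p against the list's direction, and the 2 most abundant members not called. They also include the genes ranked 6 to 20 by fold change in each direction among called genes with at least 10 CPM and no overlap, and the 10 genes with the largest gain and loss of CPM. The rule gave 382 genes, of which a part is printed; cell type markers, il11a, nppb and genes said to be chosen after their values were seen stand outside it. No label says that pools came from separate clutches or tanks, so the p-values measure the spread between these pools.

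Alternatives were RLE size factors, DESeq2 1.42.0, limma 3.58.1 voom with quality weights, no filter, 1 CPM in 4 libraries, the 8 wild-type libraries alone, a replicate block, removal of mitochondrially encoded genes and leaving out each library.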

Additional observations from a re-analysis of the deposited data

Results flagged for a closer look

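Among the genes named above, 28 values stood far from the other 3 libraries of their group: the gap to the nearest library, as a share of the group's range, passed the 95% critical value of Dixon's test for 4 samples. In all, 384 groups of 4 libraries were examined, and chance alone flags about 1 in 20 such groups. No explanation was tested for any of them.

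Sham replicate 4 gave 8 of these values. It was high for the keratin krt18a.1 (215 CPM), the retinoic acid carrier CRABP2 (12.3 CPM), a VEGFA ID (245 CPM), nppa (2312 CPM), the oxidase subunit cybb (14.7 CPM), a CKB ID (99.2 CPM) and the collagen chaperone SERPINH1 (55.3 CPM), and low for GAPDH (18140 CPM). Injured replicate 1 was high for HAND2 (208 CPM), CLDN5 (32.4 CPM), nppa (2876 CPM) and nppal (109 CPM). Injured replicate 2 was high for cxcl18b (35.11 CPM), NID2 (97.8 CPM) and GPR84 (28.7 CPM).

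Injured replicate 3 was high for NDUFV2 (142 CPM), SOD2 (214 CPM), RPLP0 (2777 CPM) and cox7a1 (200.3 CPM), and low for f13a1b (44.1 CPM). Injured replicate 4 was high for CCN2 (427 CPM) and KLF9 (12.4 CPM). Sham replicate 1 was low for PSPH (58.99 CPM) and cox7a1 (308 CPM) and high for PAQR9 (186 CPM) and nppal (0.513 CPM). Sham replicate 3 was high for il11a (2.06 CPM) and low for PAMR1 (0.206 CPM).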

How the results depend on the processing

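With all libraries 3798 genes were called. The count was 3821 with RLE size factors, 4162 with DESeq2, 4332 with limma voom, 3470 with no filter on low counts, 3836 with the filter of 1 CPM in 4 libraries and 3208 with the 8 wild-type libraries alone. Leaving out 1 library gave 3027 to 3659 genes, with 1686 to 2036 higher and 1248 to 1640 lower. No gene called both in the main test and in any of these 17 alternatives changed direction. The higher share of the calls ran from 51.3% to 58.8%. Each gene's shift in log2 fold change from the main test had a median over genes of at most 0.0216 in size. Of 400 genes named by the rule or printed in the text, 284 were called, and 34 of these lost their call in at least 1 alternative. Of the 116 not called, 30 gained one. The call counts of cytosolic ribosomal genes depended on the tool, with 22 lower calls by DESeq2 and 19 by limma voom against 11. Skeletal muscle and erythrocyte genes had no higher call by limma voom.

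Injured and sham libraries with the same number share only that number: their deviations from the group means correlated at -0.0901, 0.0925, 0.0653 and -0.122 across genes for numbers 1 to 4, and not every library correlated best with its own number. With the replicate block 3545 genes were called, 1960 higher and 1585 lower. Library depth limits the genes of low level: those at or under 3 counts in every sham library have only a lower bound. At 4 libraries a group the simulated test missed part of the changes of 1 on the log2 scale. The simulation changed only genes of at least 10 CPM and did not measure recovery below that level.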
